A study of Mus musculus with 6 samples.

Results

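The genes described here are 10 regulators and products of tuft cells, the chemosensory epithelial cells that were first known from the gut and airways and that have a counterpart in the thymic medulla. They were taken by gene symbol from 6 tables of expression values, and all 10 were found among the 20443 gene symbols of those tables. Expression had been measured by RNA sequencing in medullary thymic epithelial cells (mTECs), the stromal cells that show tissue-restricted self-antigens to developing T cells. The series asks about the part of Jmjd3, a histone H3 lysine demethylase with the gene symbol Kdm6b, in that antigen expression. The control group (Con, 3 libraries: Con_253, Con_261, Con_264) came from Jmjd3fl/fl mice, which carry the floxed alleles and no Cre. The Jmjd3-deficient group (cKO, 3 libraries: cKO_262, cKO_263, cKO_265) came from Jmjd3fl/fl-Foxn1-cre mice, in which Cre is driven by the promoter of Foxn1, a transcription factor gene of thymic epithelium. All mice were C57BL/6 and 4 weeks old, and the cells were sorted by flow cytometry. Because Cre was present in 1 group only, loss of Jmjd3 and presence of Cre cannot be told apart. Wherever 3 values of a group are given below, they follow that order of the libraries.

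Tuft cells depend on the POU-domain factor Pou2f3, and they sense luminal or local signals through a taste-like G-protein cascade. On activation they release interleukin 25 (IL-25), which acts on type 2 lymphocytes, and small mediators made on demand: cysteinyl leukotrienes, prostaglandins and acetylcholine. Thymic tuft-like mTECs share this program and are one of several mTEC states that resemble peripheral cell types. The 10 genes fall into fate factors (Pou2f3, Gfi1b, Sox9 and Ascl2), the cytokine gene Il25, the leukotriene enzymes (Alox5, Alox5ap and Ltc4s), the cyclooxygenase gene Ptgs1 and the acetylcholine enzyme gene Chat.

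RefSeq promoter windows (GRCm38.p6, the assembly of mm10; 300 bases, from 250 before to 50 after the annotated start) were at hand for 6 of the 10 genes, namely Gfi1b, Ascl2, Alox5, Ltc4s, Ptgs1 and Chat. The 250 bases before the start are shown for the 4 effector genes among them, because these are the enzymes whose levels are compared below. Letters are in lower case, and capitals mark matches to 3 motifs searched on both strands: TGCAAAT (a core of the POU octamer, reverse complement ATTTGCA), the E-box CAGCTG (its own reverse complement) and the Sox core ACAAAG (reverse complement CTTTGT). No marked match overlaps another.
Alox5 (chr6:116461179-116461428, minus strand): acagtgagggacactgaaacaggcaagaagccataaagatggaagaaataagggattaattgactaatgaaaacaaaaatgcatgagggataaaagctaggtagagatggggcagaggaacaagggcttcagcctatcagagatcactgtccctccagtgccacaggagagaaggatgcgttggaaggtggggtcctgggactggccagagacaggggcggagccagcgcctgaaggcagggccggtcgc
Ptgs1 (chr2:36230176-36230425, plus strand): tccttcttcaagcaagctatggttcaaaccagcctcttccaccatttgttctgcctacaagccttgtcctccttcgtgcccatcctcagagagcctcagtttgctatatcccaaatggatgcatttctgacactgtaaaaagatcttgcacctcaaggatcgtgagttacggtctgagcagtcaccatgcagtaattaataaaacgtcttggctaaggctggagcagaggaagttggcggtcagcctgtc
Ltc4s (chr11:50238533-50238782, minus strand): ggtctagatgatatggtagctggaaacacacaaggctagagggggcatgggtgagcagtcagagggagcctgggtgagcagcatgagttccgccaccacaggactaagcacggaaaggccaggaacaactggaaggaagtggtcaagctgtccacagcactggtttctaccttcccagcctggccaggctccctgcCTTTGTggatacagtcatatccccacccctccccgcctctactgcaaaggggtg
Chat (chr14:32465910-32466159, minus strand): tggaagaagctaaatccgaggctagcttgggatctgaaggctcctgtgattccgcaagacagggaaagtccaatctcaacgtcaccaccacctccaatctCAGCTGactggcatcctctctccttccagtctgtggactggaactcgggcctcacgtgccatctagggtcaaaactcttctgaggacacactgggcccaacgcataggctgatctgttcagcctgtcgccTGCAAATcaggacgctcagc
The Chat window held the octamer core, which began 20 bases before the start (position -20), and the E-box at position -150. The Ltc4s window held the Sox core in reverse at position -54. The Alox5, Ptgs1, Gfi1b and Ascl2 windows held none of the 3 words, which says only that these letters are not in these windows. Of all 32851 windows in the table, 4.02% held the octamer core, 16.3% the E-box and 18.7% the Sox core, and a match is no evidence of binding. The ratio of observed to expected CpG dinucleotides was 0.685 for Ascl2, 0.492 for Gfi1b, 0.436 for Chat, 0.323 for Alox5, 0.313 for Ptgs1 and 0.233 for Ltc4s, against a median of 0.384 over all windows. Ascl2 was thus the only 1 of the 6 above 0.6, a level reached by 35.8% of all windows.

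Values were in FPKM, that is, fragments for each kilobase of a transcript relative to the mapped total, and the depth of each library is unknown. Rows of 1 symbol were summed, and the 15720 genes averaging 0.5 FPKM or more over the 6 libraries were tested together with limma on log2(FPKM + 1). The p-values were adjusted over all of them by the Benjamini-Hochberg method. Among all tested genes 12 (0.0763%) were called at an adjusted p under 0.05, 3 higher and 9 lower in cKO. The 9 mTEC marker genes found (among them Epcam, Krt5, Aire and Fezf2) summed to 7442 to 8474 FPKM in Con and 7452 to 8998 FPKM in cKO, and 0 of them had an unadjusted limma p under 0.05. Kdm6b itself was at 18.1, 17.1 and 9.998 FPKM in Con and at 11.1, 11.6 and 8.67 FPKM in cKO, so the groups overlapped. The value covers all exons, and the labels do not name the deleted part, so it does not check the labels. Library cKO_265 stood apart on the first principal component (53.02, against -22.7 to 7.42 in the others), and the Y-linked gene Ddx3y reached 2.22 FPKM in Con_253 and at most 0.0117 FPKM elsewhere. Values without these 2 libraries are therefore given below.

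All 10 genes had a lower mean level in cKO, but by unequal amounts. For 8 of them every cKO library lay below every Con library (Pou2f3, Ascl2, Il25, Alox5, Alox5ap, Ltc4s, Ptgs1 and Chat), a pattern seen in 11.9% of all tested genes. Mean cKO levels of these 8 ranged from 24.4% of the Con mean for Il25 to 68.2% for Ltc4s. For Sox9 and Gfi1b the groups overlapped. With 0 of the 10 genes called (limma, adjusted p from 0.0622 to 0.898), no single gene passed the threshold over all genes, where 0.0573% of tested genes were called lower. At an unadjusted limma p under 0.05 the count was 8 of 10, against 7.82% of all tested genes that were lower at that p. The median log2 difference of the 10 genes (cKO minus Con) was -0.98, beside -0.04 over all tested genes. The 1 refit that called any of them gave each library a weight of its own (limma's arrayWeights): it called 8 of the 10, all but Sox9 and Gfi1b, but it also called 19.2% of all tested genes, with 10.5% of all tested genes called lower. These are bulk samples, so fewer tuft-like cells and less RNA per cell cannot be told apart for any of these genes.

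**Figure D1:**
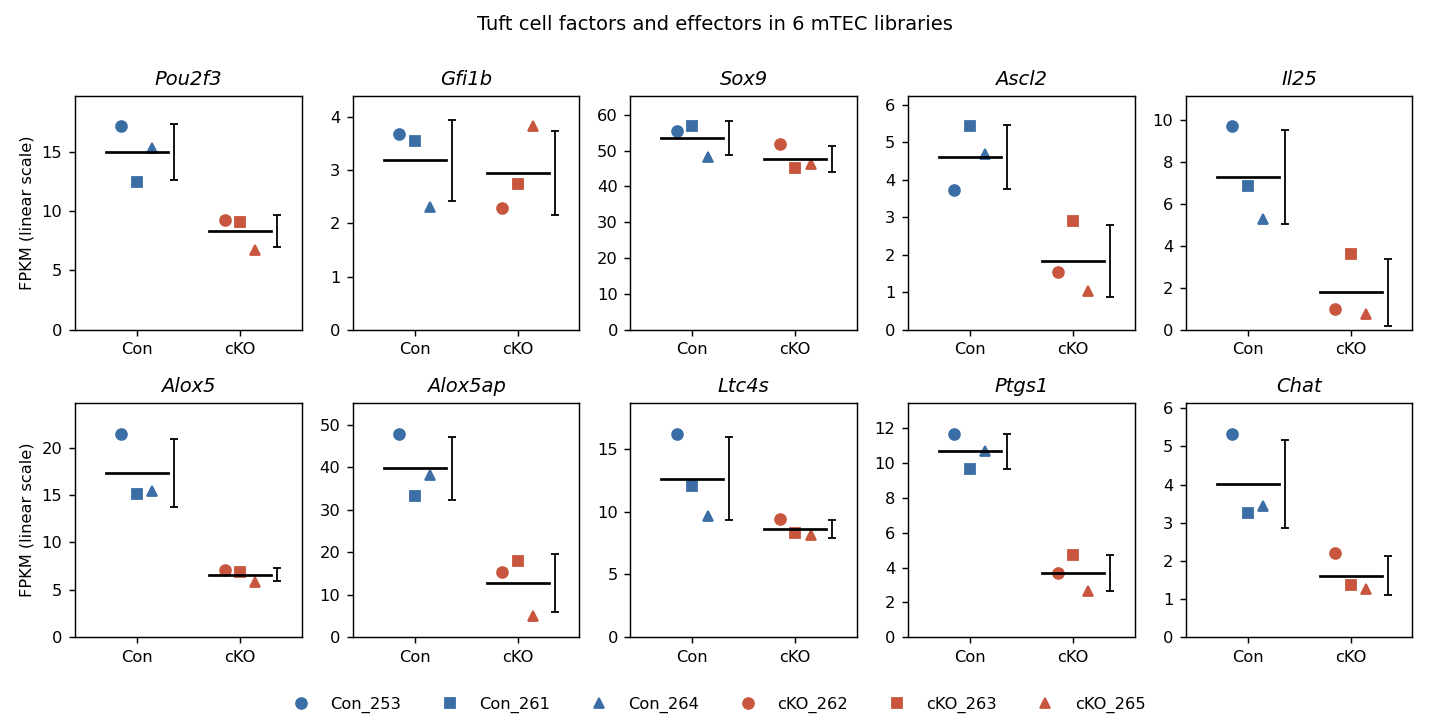
FPKM (linear axis from 0) of the 10 genes in the 3 Con (blue) and 3 cKO (red) libraries, with 1 marker shape per library, a line at the group mean and a bar of ± 1 SD. Groups are separate for 8 genes, and they overlap for Gfi1b and Sox9.

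Pou2f3, the master regulator of the tuft lineage (a protein-coding gene on chromosome 9, mm10, from 43123939 to 43205755), stood at 17.2, 12.5 and 15.4 FPKM in Con. In cKO it was at 9.22, 9.05 and 6.75 FPKM. Every cKO library was below every Con library, but the cKO mean still stood at 55.6% of the Con mean (15.0 ± 2.37 against 8.34 ± 1.38 FPKM, SD, n = 3 each). The log2 difference was -0.78 (SE 0.18, limma adjusted p = 0.140). Ascl2, a basic helix-loop-helix factor of intestinal stem cells that the tuft lineage also uses (chromosome 7 from 142966822 to 142969264), was at 3.71, 5.43 and 4.67 FPKM in Con and at 1.55, 2.89 and 1.04 FPKM in cKO. The groups did not overlap, and the nearest pair was Con_253 and cKO_263. Its log2 difference was -1.03 (SE 0.26, limma adjusted p = 0.155).

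Sox9, a progenitor and secretory factor of many epithelia (chromosome 11 from 112782210 to 112787757), had the highest level of the 10 genes in FPKM and differed little between the groups. It was at 55.5, 56.8 and 48.2 FPKM in Con and at 51.7, 45.1 and 46.1 FPKM in cKO. Con_264 lay below cKO_262, and the log2 difference of -0.16 had a 95% interval from -0.47 to 0.15 (limma adjusted p = 0.625). That interval leaves out a difference as large as the one fitted for Pou2f3. Gfi1b, a zinc-finger repressor of tuft cells that also acts in erythroid cells and megakaryocytes (chromosome 2 from 28609450 to 28621982), had the lowest mean of the 10 in Con but not in cKO, where Chat, Il25 and Ascl2 were lower. It was at 3.69, 3.55 and 2.31 FPKM in Con and at 2.29, 2.74 and 3.83 FPKM in cKO, and the highest of the 6 values was that of cKO_265. Its log2 difference was -0.08 with a 95% interval from -0.59 to 0.42 (limma adjusted p = 0.898), and its sign turned under quantile normalization (0.03), without Con_253 (0.01) and without cKO_262 (0.04).

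The sum for Gfi1b hides an uneven split between its 2 table rows, which share 1 locus. The first row held 3.69, 2.88 and 2.31 FPKM in Con and 2.29, 0.0646 and 3.30 FPKM in cKO, with the low value in cKO_263. The second row was at 2.68 FPKM in cKO_263, 0.666 FPKM in Con_261 and 0.535 FPKM in cKO_265, and at most 0.000229 FPKM in the other three libraries. In cKO_263 nearly all of the Gfi1b signal was therefore assigned to the second row. With the first row alone the log2 difference was -0.67 (limma adjusted p = 0.573), and the groups still overlapped through cKO_265.

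Partners of these factors were read from a list of 17 tuft fate genes present in the tables, of which 16 were tested and 12 were not among the 10 genes. Of these 12, 0 were called. An unadjusted limma p under 0.05 was found for 3, all lower in cKO, against 7.82% of all tested genes. The lowest p was that of 1810046K07Rik, known as the gene of a coactivator that binds Pou2f3, at 22.8, 17.9 and 16.8 FPKM in Con and 5.25, 9.22 and 4.72 FPKM in cKO (log2 difference -1.49, SE 0.24, limma adjusted p = 0.0962). The Runt-domain factor gene Runx1 averaged 4.74 ± 0.564 FPKM in Con and 2.18 ± 0.152 FPKM in cKO (SD, n = 3 each; limma adjusted p = 0.118). Pou2af1, a coactivator gene of octamer factors in B cells, averaged 10.8 ± 0.844 and 6.78 ± 2.40 FPKM (limma adjusted p = 0.270). Gm684, listed in RefSeq under Colca2 and singled out after its values were seen because it is the other known Pou2f3 coactivator, averaged 7.96 ± 0.547 and 6.11 ± 0.659 FPKM (log2 difference -0.34, limma adjusted p = 0.371).

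Il25, the cytokine gene by which tuft cells instruct type 2 immunity (chromosome 14 from 54932695 to 54935836), had the lowest remaining share of the 10 genes. It was at 9.70, 6.82 and 5.26 FPKM in Con and at 0.969, 3.61 and 0.736 FPKM in cKO. The cKO libraries disagreed among themselves: cKO_263 kept 49.7% of the Con mean, while cKO_262 and cKO_265 kept 13.3% and 10.1%. The log2 difference was -1.68 (SE 0.37, limma adjusted p = 0.125), the 12th lowest of the 15720 tested genes. With 1 library left out it ran from -1.42 without cKO_265 to -2.12 without cKO_263 (limma adjusted p = 0.179 and 0.0553), and it was -1.48 without Con_253 and -1.22 without both Con_253 and cKO_265.

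Of the 14 other tested genes of the IL-25 and type 2 list, 0 were called. An unadjusted limma p under 0.05 was found for 2, both lower in cKO, against 7.82% of all tested genes. Il17rb, the IL-25 receptor chain that tuft cells themselves carry, was at 8.54, 8.73 and 9.92 FPKM in Con and 3.71, 4.09 and 4.13 FPKM in cKO. Both groups were tight and well apart (log2 difference -1.02, SE 0.16, limma adjusted p = 0.0774). The type 2 cytokine gene Il13 averaged 36.2 ± 4.85 FPKM in Con and 24.3 ± 4.66 FPKM in cKO (limma adjusted p = 0.227). Il4, a further type 2 cytokine gene, had a value of 2.45 and 2.52 FPKM in Con_261 and Con_264, with Con_253 listed at 0, and of 3.15, 2.33 and 5.06 FPKM in cKO (limma adjusted p = 0.409).

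Leukotriene synthesis starts when Alox5 (5-lipoxygenase) oxidises arachidonic acid presented by Alox5ap, the membrane protein FLAP, and Ltc4s then joins the product to glutathione. Alox5 (chromosome 6 from 116410071 to 116461178) was at 21.5, 15.1 and 15.4 FPKM in Con and at 7.11, 6.86 and 5.86 FPKM in cKO. The lowest Con library was 2.13 times the highest cKO library, the widest gap among the 10 genes. The log2 difference was -1.26 (SE 0.18), with the smallest limma adjusted p of the 10 genes (0.0622, unadjusted 8.69e-05).

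Alox5ap (chromosome 5 from 149265058 to 149288047) was at 47.9, 33.3 and 38.2 FPKM in Con and at 15.3, 18.0 and 4.97 FPKM in cKO. All 3 cKO libraries were low, and cKO_265 was far below the other two at 12.5% of the Con mean. The log2 difference of -1.72 (SE 0.39, limma adjusted p = 0.132) was the 10th lowest of all tested genes, and leaving out cKO_265 gave -1.20, while leaving out Con_253 as well gave -1.06.

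Ltc4s (chromosome 11 from 50236472 to 50238471) differed less, although it is an enzyme of the same route. It was at 16.2, 12.1 and 9.63 FPKM in Con and at 9.41, 8.28 and 8.17 FPKM in cKO. The groups were apart only by the small gap between Con_264 and cKO_262, a ratio of 1.02. The log2 difference was -0.48 (SE 0.20, limma adjusted p = 0.318), and it was -0.30 without Con_253 and -0.26 without both Con_253 and cKO_265.

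The rest of the leukotriene list held genes on either side of 0. Of 14 other tested genes, 6 had lower and 8 higher fitted values in cKO, and 0 were called. At an unadjusted limma p under 0.05 there were 2 lower and 2 higher genes, against 7.82% and 6.81% of all tested genes. Their median log2 difference was 0.07. Lta4h, the hydrolase that diverts the shared intermediate to leukotriene B4, was at 256.0, 235.5 and 194.8 FPKM in Con and 310.7, 310.3 and 331.3 FPKM in cKO (log2 difference 0.48, limma adjusted p = 0.205). Abcc1, an exporter of leukotriene C4, averaged 60.0 ± 2.30 and 76.5 ± 1.59 FPKM (log2 difference 0.35, limma adjusted p = 0.248). For both genes every cKO library was above every Con library, as in 9.59% of all tested genes. The leukotriene B4 receptor gene Ltb4r2 averaged 0.811 ± 0.177 FPKM in Con, with 0.636 and 0.134 FPKM in cKO_262 and cKO_265 and cKO_263 listed at 0 (limma adjusted p = 0.290).

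Ptgs1, the constitutive cyclooxygenase that opens prostaglandin synthesis (chromosome 2 from 36230426 to 36252269), was at 11.7, 9.68 and 10.7 FPKM in Con and at 3.68, 4.71 and 2.65 FPKM in cKO. The groups were far apart relative to their spread, with means of 10.7 and 3.68 FPKM. The log2 difference was -1.34 (SE 0.20, limma adjusted p = 0.0758). Of the 18 other tested prostaglandin genes, 0 were called. At an unadjusted limma p under 0.05 there were 2 lower and 0 higher genes, against 7.82% and 6.81% of all tested genes. Hpgd, the dehydrogenase that inactivates prostaglandins, was at 29.1, 29.8 and 40.2 FPKM in Con and 15.2, 9.31 and 12.3 FPKM in cKO (log2 difference -1.37, SE 0.21, limma adjusted p = 0.0774). Hpgds, the hematopoietic prostaglandin D synthase that tuft cells also express, averaged 7.96 ± 1.39 and 4.89 ± 1.18 FPKM (limma adjusted p = 0.228), and the receptor gene Ptger3 averaged 7.69 ± 1.72 and 5.44 ± 1.13 FPKM (limma adjusted p = 0.393).

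Chat, which makes acetylcholine (chromosome 14 from 32408203 to 32465909), was at 5.33, 3.26 and 3.44 FPKM in Con and at 2.21, 1.37 and 1.27 FPKM in cKO. The cKO libraries were all lower, at 31.6% to 55.1% of the Con mean (log2 difference -0.93, SE 0.23, limma adjusted p = 0.148). The vesicular transporter gene Slc18a3, chosen after its values were seen because it lies within Chat on the same strand and carries the same locus in the tables, was at 1.39, 2.02 and 1.18 FPKM in Con and 1.63, 1.01 and 0.345 FPKM in cKO, with groups that overlapped. Reads of the shared part cannot be told apart. Of the 12 other tested acetylcholine genes 0 were called. A lower value at an unadjusted limma p under 0.05 was found for 1, against 7.82% of all tested genes. It was the choline transporter-like gene Slc44a2 (13.0 ± 1.57 against 9.68 ± 0.925 FPKM, limma adjusted p = 0.301). The choline kinase genes Chkb (log2 difference 0.57) and Chka (0.23) followed, with limma adjusted p of 0.344 and 0.448. In GENCODE M21 antisense genes overlap Chat (Gm2990), Ltc4s (Gm26542) and Alox5ap (Gm19719). A further gene on the opposite strand, Gm43621, overlaps Ptgs1. The strand of the counting was not given.

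**Figure D2:**
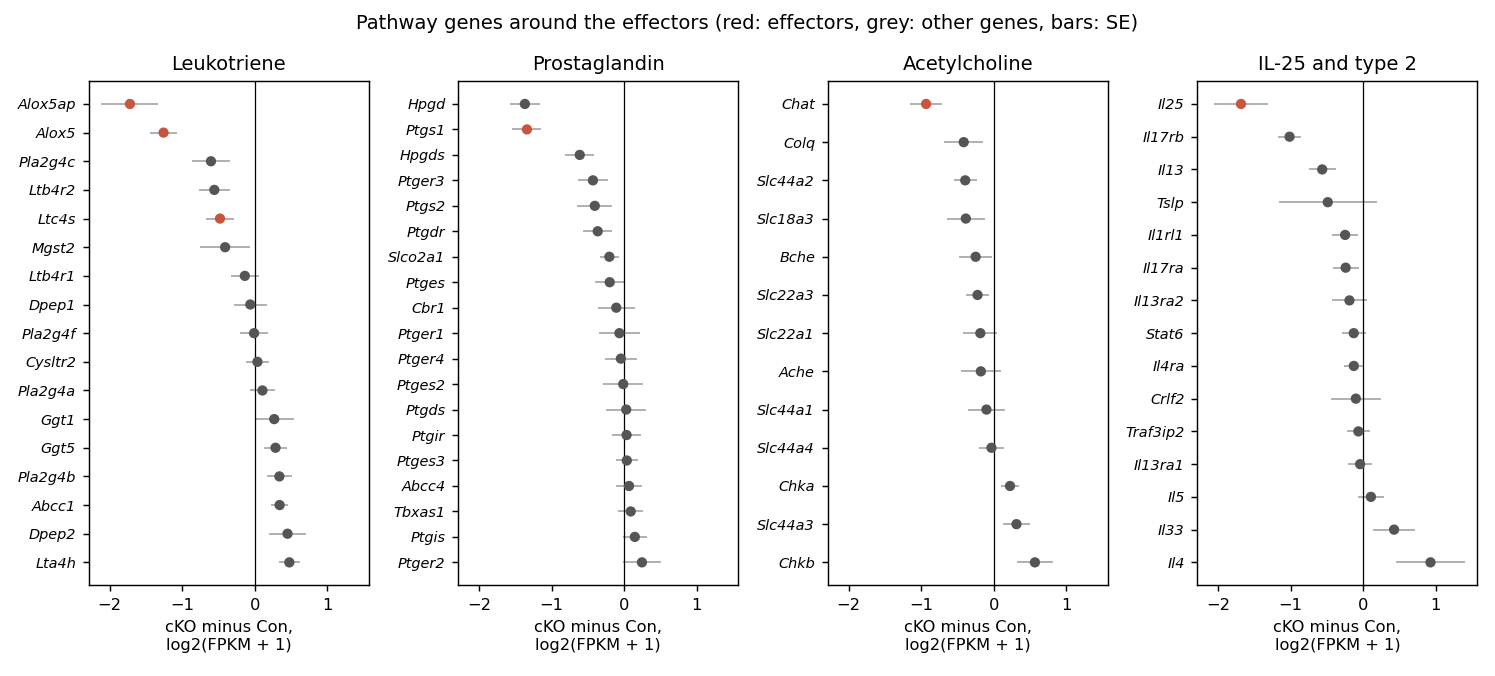
Log2 difference (cKO minus Con, on log2(FPKM + 1)) of each tested gene of 4 pathway lists, with bars of ± 1 SE, the effectors in red and other genes in grey. Alox5ap, Alox5, Chat and Il25 have the lowest values of their lists, Ptgs1 (-1.34) lies next to Hpgd (-1.37), Ltc4s (-0.48) lies among other genes, and Lta4h (0.48) and Abcc1 (0.35) lie above 0.

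The 10 genes were set beside 31 tested chemosensory and structural tuft genes, from ion channels to cytoskeleton. Of these 31, 27 had lower fitted values in cKO, and their median log2 difference was -0.98, beside -0.04 over all tested genes. The list was chosen with earlier results of these data known. It held 5 genes called lower, against 0.0573% of all tested genes. A lower value at an unadjusted limma p under 0.05 was found for 24, against 7.82% of all tested genes. The 5 called genes were Rgs13 (-2.04), Sh2d7 (-2.02), Pik3r5 (-1.91), Plcb2 (-1.70) and Avil (-1.58), with limma adjusted p from 0.0113 to 0.0384. Rgs13 regulates G-protein signalling, Plcb2 is the phospholipase of taste cells and Avil bundles actin in the tuft.

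**Figure D3:**
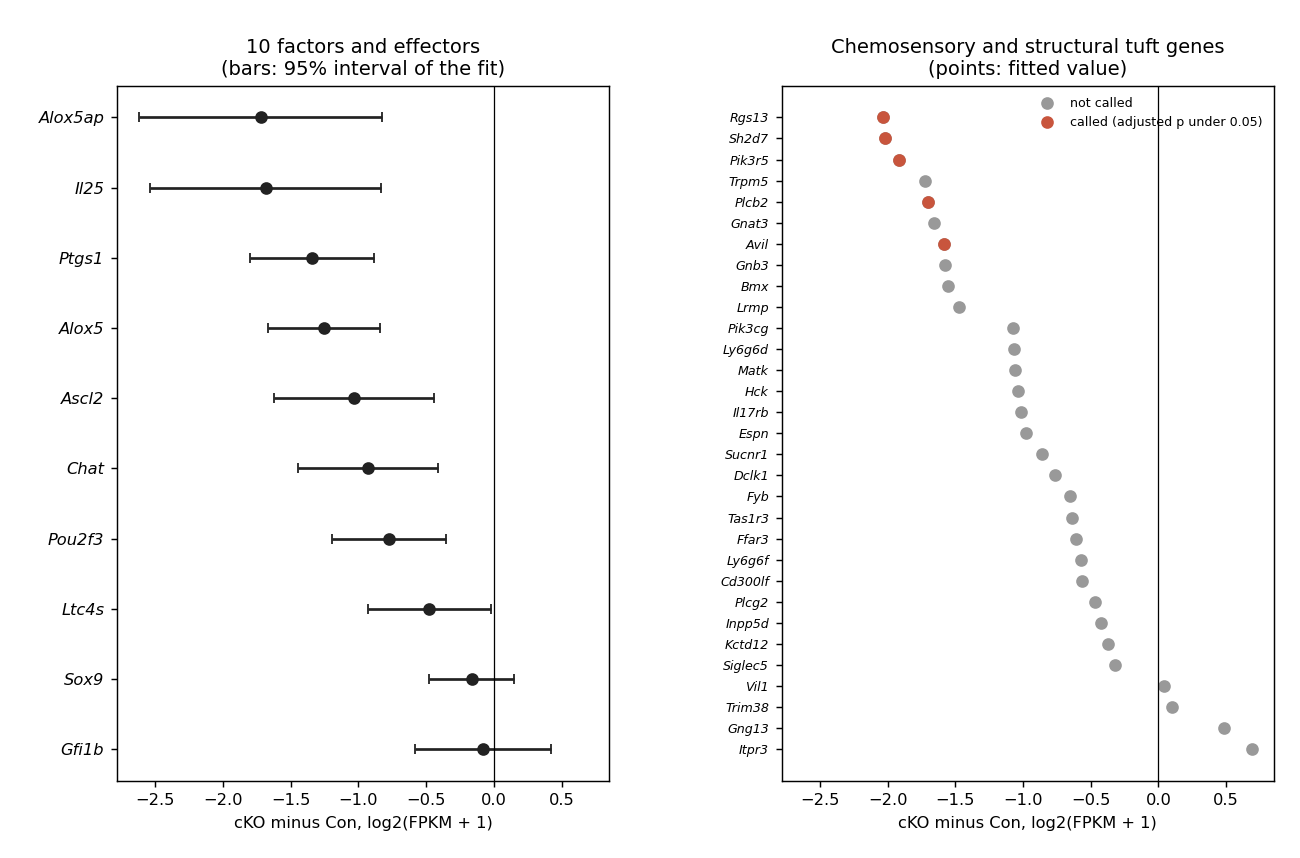
Log2 difference (cKO minus Con, on log2(FPKM + 1)) of the 10 genes with the 95% interval of the fit (left) and of the 31 chemosensory and structural genes (right, called genes in red). The intervals of Sox9 and Gfi1b include 0, and those of the other 8 genes do not.

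Each gene was then expressed relative to that list, as its log2(FPKM + 1) minus the median log2(FPKM + 1) of the 31 genes in the same library. The list median itself was 3.86, 3.58 and 3.70 in Con and 2.23, 2.62 and 2.21 in cKO. That median level differed by -1.36, more than the median of the 31 log2 differences (-0.98), so the scale depends on how the list is summarised. A second scale, chosen after seeing the data, therefore set every gene to 0 at its own mean over the 6 libraries before the list median was taken (list difference -0.97). Ptgs1 was at -0.20, -0.16 and -0.16 in Con and at -0.01, -0.11 and -0.34 in cKO, a difference of 0.02 (exact permutation test, 2-sided, p = 0.8). Alox5 differed by 0.11 (exact p = 0.6), Alox5ap by -0.36 (exact p = 0.9) and Il25 by -0.32 (exact p = 0.4), and the groups overlapped for each of these 4 genes. On the second scale all 4 were lower relative to the list, by -0.37 for Ptgs1, -0.29 for Alox5, -0.75 for Alox5ap (exact permutation p = 0.1 each, the smallest that 3 against 3 libraries can give) and -0.72 for Il25 (exact p = 0.2). For Ptgs1 and Alox5 the sign thus turned with the scale, and on the first scale Alox5ap was at 0.09 without cKO_265 and at 0.15 without Con_253 as well.

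Sox9 and Gfi1b stood higher against the list in every cKO library than in any Con library on both scales. For Gfi1b this holds for the sum of its rows. Its first row alone was at 0.0646 FPKM in cKO_263, and the comparison was not repeated with that row. The difference was 1.20 and then 0.81 for Sox9, and 1.28 and then 0.89 for Gfi1b, each with an exact permutation p of 0.1. The list was lower in cKO and was chosen with earlier results known, so a gene that changed little must stand higher against it. These p-values therefore do not test Sox9 or Gfi1b alone. The exact p-values of the other genes against this list carry the same limit. Pou2f3 differed by 0.58 on the first scale, with 0.32, 0.17 and 0.33 in Con and 1.12, 0.71 and 0.75 in cKO (exact permutation p = 0.1). On the second scale its difference was 0.19 and the groups overlapped (exact permutation p = 0.2). Ltc4s likewise went from 0.88 (exact permutation p = 0.1) to 0.49 with groups that overlapped (exact permutation p = 0.2). Chat differed by 0.43 and then 0.04, and Ascl2 by 0.33 and then -0.06, with groups that overlapped on both scales. The size of every difference relative to the list depended on the scale, those of Sox9 and Gfi1b included. Each gene shifted by the same amount between the scales, because only the list difference changed. The sign turned for Ptgs1, Alox5 and Ascl2. Only for Sox9 and Gfi1b did the groups stay apart on both scales.

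**Figure D4:**
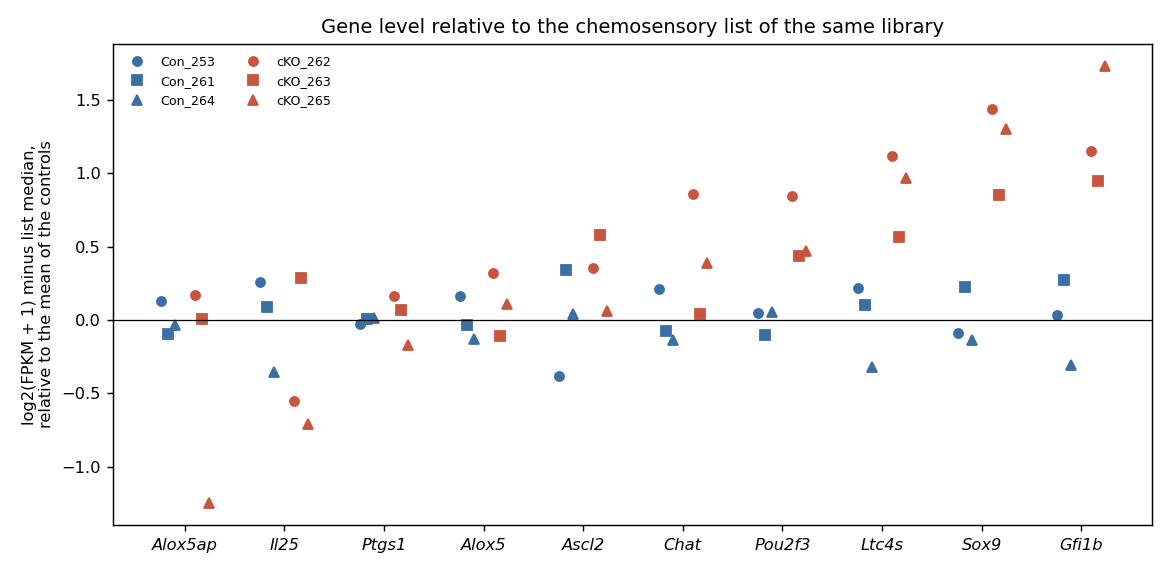
Level of each gene relative to the median of the 31 chemosensory and structural genes of the same library, in log2 units and set to 0 at the mean of the controls, for the 3 Con (blue) and 3 cKO (red) libraries. Red points lie above all blue points for Pou2f3, Ltc4s, Sox9 and Gfi1b, and groups overlap for the other 6 genes; on the second scale, not drawn, Sox9 and Gfi1b alone lie above.

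The libraries of a group did not share 1 level. In 8 of the 10 genes cKO_265 was the lowest of all 6 libraries, with Sox9 and Gfi1b as the exceptions. The share of all tested genes lowest in cKO_265 was not counted. The median over the tested genes was 6.79, 6.76 and 6.79 FPKM in Con and 6.49, 6.42 and 6.16 FPKM in cKO. It was thus lower in every cKO library than in any Con library, and lowest in cKO_265. Summed FPKM did not overlap between the groups (461152 to 543156 in Con, 582835 to 641060 in cKO). Con_253 was the highest control in 8 of the 10, with Sox9 and Ascl2 as the exceptions. Without both libraries the median log2 difference of the 10 genes was -0.80, and for 8 of them the groups still did not overlap, beside 26.5% of all tested genes in that smaller set. In that set the log2 difference was -0.55 for Pou2f3, -0.66 for Chat, -0.94 for Ascl2, -1.03 for Alox5 and -1.11 for Ptgs1. For Sox9 and Gfi1b it was -0.11 and -0.15. Relative to the Con mean, the median over the 10 genes was 0.24, -0.08 and -0.14 in Con_253, Con_261 and Con_264 and -0.88, -0.73 and -1.26 in cKO_262, cKO_263 and cKO_265.

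Several effectors are also made by blood cells, so the markers of such cells are given beside them. Alox5, Alox5ap, Ltc4s and Ptgs1 occur in macrophages and mast cells. The 10 macrophage and monocyte markers summed to 446 to 502 FPKM in Con and to 353 to 399 FPKM in cKO, mostly from Lyz2, and the median log2 difference of the 9 tested markers was -0.26. The 9 mast cell and basophil markers summed to 279 to 313 FPKM in Con and to 203 to 244 FPKM in cKO, mostly from Hdc. Of the others, Cpa3 and Ms4a2 reached at most 0.686 and 0.509 FPKM in any library, while Mcpt4 was at 8.51 to 17.9 FPKM, Cma1 at 6.35 to 12.5 FPKM, Kit at 8.54 to 14.7 FPKM and Tpsb2 at 3.49 to 6.50 FPKM over the 6 libraries. The group means went both ways. Hdc averaged 247 FPKM in Con and 182 FPKM in cKO, Kit 13.2 and 9.90 FPKM, and Tpsb2 5.09 and 3.89 FPKM. Gata2 averaged 6.54 FPKM in Con and 9.30 FPKM in cKO, Cma1 7.73 and 10.1 FPKM, and Mcpt4 13.2 and 12.9 FPKM. The 7 granulocyte markers found summed to 229 to 280 FPKM in Con and to 231 to 634 FPKM in cKO. The highest sum was that of cKO_265, mostly from S100a9 (293.9 FPKM) and S100a8 (214.6 FPKM), while cKO_262 and cKO_263 were at 231 and 315 FPKM. The 8 dendritic cell markers summed to 65.5 to 81.8 FPKM in Con and 65.6 to 88.2 FPKM in cKO. Lower at an unadjusted limma p under 0.05 were Lyz2 (1 of 9 tested macrophage markers), and Hdc and Kit (2 of 7 tested mast cell markers). Higher at that p was Prg2 (1 of 6 tested granulocyte markers). Over all tested genes the shares were 7.82% lower and 6.81% higher. For each of these genes the groups did not overlap, as in 11.9% (lower) and 9.59% (higher) of all tested genes. The part of these cells in the effector values was not tested.

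Thymocyte and B cell markers are given because lymphocytes can express Chat. The 11 thymocyte markers summed to 43.7 to 71.5 FPKM in Con and to 30.6 to 40.0 FPKM in cKO. An unadjusted limma p under 0.05 was found for 5 of 9 tested, all lower in cKO, against 7.82% of all tested genes. The 6 B cell markers summed to 39.8 to 52.7 FPKM in Con and 41.7 to 57.2 FPKM in cKO. The 9 markers found for megakaryocytes, platelets and erythroid cells, which can express Gfi1b and Ptgs1, summed to 13.4 to 24.3 FPKM in Con and 20.7 to 27.7 FPKM in cKO. The 7 cortical epithelial markers summed to 944 to 1148 and 1077 to 1516 FPKM, the 6 endothelial markers to 7.76 to 7.86 and 5.38 to 5.70 FPKM, and the 7 fibroblast markers to 32.8 to 40.5 and 29.7 to 35.9 FPKM. Of the marker genes of all these cell types 0 were called (limma), and their part in the Chat, Gfi1b and Ptgs1 values was not tested.

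Among the 5 genes outside all lists with the pattern most like that of Pou2f3 were Acsm1 (a medium-chain acyl-CoA synthetase gene), Car8 (a carbonic anhydrase relative), Tas2r126 and Lbp (a lipopolysaccharide-binding protein gene). Likeness was the root mean square difference over the 6 libraries between log2(FPKM + 1) values set to 0 at the mean of the controls, and it was 0.0838, 0.0920, 0.0949 and 0.104 for these 4 in that order. Tas2r126, a bitter taste receptor gene, was at 1.13, 0.755 and 0.787 FPKM in Con and 0.271 and 0.160 FPKM in cKO_262 and cKO_263, and was listed at 0 in cKO_265. Car8 was at 5.35, 4.67 and 4.78 FPKM in Con and 2.71, 2.91 and 1.88 FPKM in cKO. These genes were chosen for this pattern, so their levels are a description. Among the 10 genes Chat was nearest to Pou2f3 (0.195, the 108th nearest of all tested genes), and Alox5ap and Il25 were farthest (0.777 and 0.776). The measure also follows the size of a difference. Alox5ap and Il25, which were lower by more than Pou2f3, thus lay farther from it than Sox9 (0.479) and Gfi1b (0.608), whose groups overlapped.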

How the data were processed

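RNA sequencing values of mTECs from 3 Con and 3 cKO mice were used, 1 table per library. Per the labels, RNA was column-purified, and cDNA was amplified with a kit for whole transcriptomes of single cells, which can favour transcripts by length and base composition. The authors deposited FPKM values; the tools named, per the submitters' processing notes, are Bowtie2 2.2.5 and Cufflinks, with the build mm10. What annotation, strand setting and scaling they used is not given in the sources used here. The unit was taken from the use of Cufflinks, since the headers name the column only as expression.

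Rows of a symbol were summed, and 44 rows of 25 symbols that had become calendar dates were left out. The 15720 genes that averaged 0.5 FPKM or more were fitted on log2(FPKM + 1) in R 4.3.3 with limma 3.58.1 (trended eBayes, 2-sided, Benjamini-Hochberg), after a test on simulated data. Differences are cKO minus Con, and the added 1 understates those of low genes. Each library carries its own number in the labels, read here as separate mice; the p-values measure only the spread between these samples. Starts were raised by 1 base. A value of 0 can be a failed estimate and is described as listed at 0.

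The members and gene lists were chosen with earlier results of these data known. All 10 genes were named, and in each list the called genes or the 3 other genes with the smallest unadjusted p. Alternatives were a pseudocount of 0.1, no filter, at least 5 FPKM, quantile normalization, median centring, arrayWeights, the highest row of a symbol, each library left out, and both Con_253 and cKO_265 left out. No protein sequences were used here, and 1 of the 5 genes most like Pou2f3 is not reported here.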

Additional observations from a re-analysis of the deposited data

How the results depend on the processing

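Over 14 refits with limma the fitted differences of 9 genes stayed negative wherever they were tested; that of Gfi1b turned under quantile normalization (0.0300), without Con_253 (0.0080) and without cKO_262 (0.0397), within -0.24 to 0.04 over the refits with 1 library left out. The number of the 10 genes called was 0 in 13 refits and 8 with arrayWeights (19.2% of all tested genes called, 3025 against 12), where the uncalled genes were Sox9 and Gfi1b and adjusted p of the 8 ran from 0.00371 for Alox5 to 0.0380 for Ltc4s. The median log2 difference of the 10 genes was -1.32 with a pseudocount of 0.1, as its construction enlarges differences of low genes, and -1.08 to -0.83 with 1 library left out; in those refits 0 of the 10 genes were called. With at least 5 FPKM only 6 of the 10 genes were tested. Quantile normalization called 18 of all tested genes, 5 higher and 13 lower. Median centring gave a median log2 difference of -0.90 for the 10 genes, and -0.40 for Ltc4s (limma unadjusted p = 0.0772). All genes called numbered 2 without any 1 of the Con libraries, 23 without cKO_262 and 19 without cKO_265. Of the 10 genes, 7 had an unadjusted limma p under 0.05 with median centring and without Con_253, Con_261, cKO_263 or cKO_265. The count was also 7 without both Con_253 and cKO_265, and Ltc4s was the gene lost each time. It was 9 with arrayWeights, 5 of 6 tested with at least 5 FPKM, and 8 in the other refits. The count of genes with groups that do not overlap was 8 or 9 with 1 library left out, beside 14.2% to 21.4% of all tested genes (11.9% with all 6 libraries); that alternative and those of the levels relative to the list were chosen after seeing the data. No paired analysis was possible because the groups share no replicate number. Depth is unknown, so counting error cannot be given.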

Other observations

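Factors of other mTEC states that resemble peripheral cells were read beside the tuft factors. Of 22 tested factors 0 were called (limma). An unadjusted limma p under 0.05 was found for 3, all lower in cKO, against 7.82% of all tested genes. The muscle factor gene Myog was at 11.1, 8.53 and 5.43 FPKM in Con and 4.30, 2.38 and 1.22 FPKM in cKO (log2 difference -1.40, SE 0.34, limma adjusted p = 0.149), and its relative Myf6 was at -0.50 (limma adjusted p = 0.340). The gut and liver factor gene Foxa3 was at 3.04, 2.50 and 2.70 FPKM in Con and at 1.99, 1.74 and 0.383 FPKM in cKO (log2 difference -0.74, limma adjusted p = 0.291). Spib, a factor of microfold cells that tuft cells also use, was at 158.6, 180.2 and 133.7 FPKM in Con and 188.5, 162.3 and 118.8 FPKM in cKO, with groups that overlapped (log2 difference -0.02, limma adjusted p = 0.971).

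Of the 6 lipoxygenases other than Alox5, Alox12e and Alox15 had higher FPKM than Alox5 in every library, and Alox8 did so in the 3 cKO libraries (8.25, 10.8 and 13.5 FPKM). Alox12e, an epidermal lipoxygenase gene, was at 449.7, 399.5 and 358.2 FPKM in Con and 411.0, 338.0 and 255.4 FPKM in cKO (log2 difference -0.29, limma adjusted p = 0.535). Alox15 was at 74.2, 70.8 and 61.7 FPKM in Con and 60.4, 55.7 and 38.0 FPKM in cKO (log2 difference -0.44, limma adjusted p = 0.338), and Alox12 was at -0.20 (limma adjusted p = 0.646). Of these 6 genes 0 were called. Alox15 alone had an unadjusted limma p under 0.05, where 7.82% of all tested genes were lower.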
